A study of Mus musculus with 2 samples.

Results

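The secreted and membrane-bound enzymes that cut the extracellular matrix, and the inhibitors that hold them back, were followed in M210B4, an established stromal cell line from mouse bone marrow. The genes were chosen by symbol alone: the matrix metalloproteinases (Mmp), the ADAMTS proteases (Adamts), the ADAMTS-like proteins (Adamtsl) and the tissue inhibitors of metalloproteinases (Timp). Of 22180 genes with a probe set of their own on the array, 49 belonged to these families, with 22 Mmp, 18 Adamts, 5 Adamtsl and 4 Timp genes. Mmp15 and Adamts2, which match the same symbols in RefSeq, were not analysed here. Each gene was read from its brightest probe set that carries 1 gene symbol.

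The cells were exposed for 24 h either to an antibody that activates CD84, a homophilic receptor of the SLAM family (anti-CD84), or to an IgG1 isotype antibody. Each culture of 200000 cells was kept at 37 °C with 5% CO2 in RPMI with 2% serum, and the RNA of each was hybridised to 1 Affymetrix Mouse Gene 2.0 ST array. Values are log2 expression values, and every difference is the anti-CD84 value minus the IgG1 value. With 1 array per group there was no replicate, so no test, error or p-value could be given and each difference compares 2 arrays, not 2 conditions. A level of 4.84 on the log2 scale, the 95th percentile of 1396 odorant and vomeronasal receptor genes, served as the detection level. A gene was called detected when it lay above that level on at least 1 array, and undetected when it lay below on both. In bulk RNA of a culture, fewer cells that express a gene and less of its RNA per cell cannot be told apart.

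Matrix metalloproteinases are zinc-dependent proteases that are made as inactive proenzymes and cut collagens, laminins, proteoglycans and many cell-surface proteins. ADAMTS proteases share the zinc-dependent catalytic fold and carry thrombospondin repeats that bind matrix. Several of them cleave aggrecan and versican, whereas others trim procollagens. ADAMTS-like proteins resemble ADAMTS proteins without the protease domain, and the 4 TIMPs bind active metalloproteinases and block them. In bone and marrow these enzymes take part in matrix turnover, in bone remodelling and in the release of factors held in the matrix.

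Of the 49 genes 30 were detected, which is 61.2% of them, against 59.9% of all 22180 genes. Among the 30, Mmp13, Adamts4, Adamts10 and Adamts12 were at least 1.5-fold higher after anti-CD84, and Mmp10 and Mmp21 were at least 1.5-fold lower by their measured values. The 4 higher genes made up 13.3% of the 30, and 10.7% of the 13284 detected genes of the array were as much higher. The 2 lower genes made up 6.67%, and 6.4% of all detected genes were as much lower. Both shares lay near those of all detected genes. With all differences shifted so that the median over detected genes, 0.09, became 0, these background shares were 7.71% higher and 8.49% lower. The same 4 genes were then higher, and 3 were lower, since Adamtsl3 joined Mmp10 and Mmp21. At 2-fold, 1 gene was higher, Mmp13, against 1.98% of detected genes, and 0 were lower, against 1.43%. The median difference of the 30 genes was 0.15, and 21 of them had a difference above 0, which is 70.0% against 59.1% of all detected genes.

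Of the 6 genes past 1.5-fold, 4 were below the detection level on 1 array. Among the 23 genes above it on both arrays, Adamts10 and Adamts12 were the 2 at least 1.5-fold higher, against 9.56% of all 11762 genes above it on both. None of the 23 was 1.5-fold lower, against 3.89%, and none was 2-fold apart, against 1.45% higher and 0.519% lower. Of the 23, 18 had a difference above 0, which is 78.3% against 60.7%. The spread of differences depended on the level of the gene. It was 0.48 (SD, log2) over 5057 detected genes with a mean level of 5 to 7, 0.37 over 4542 genes at 7 to 9, 0.31 over 1936 genes at 9 to 11 and 0.22 over 272 genes above 11. At least 1.5-fold apart in either direction were 34.3% of detected genes with a mean level under 5, 21.0% at 5 to 7, 12.7% at 7 to 9, 6.66% at 9 to 11 and 1.1% above 11.

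**Figure D1:**
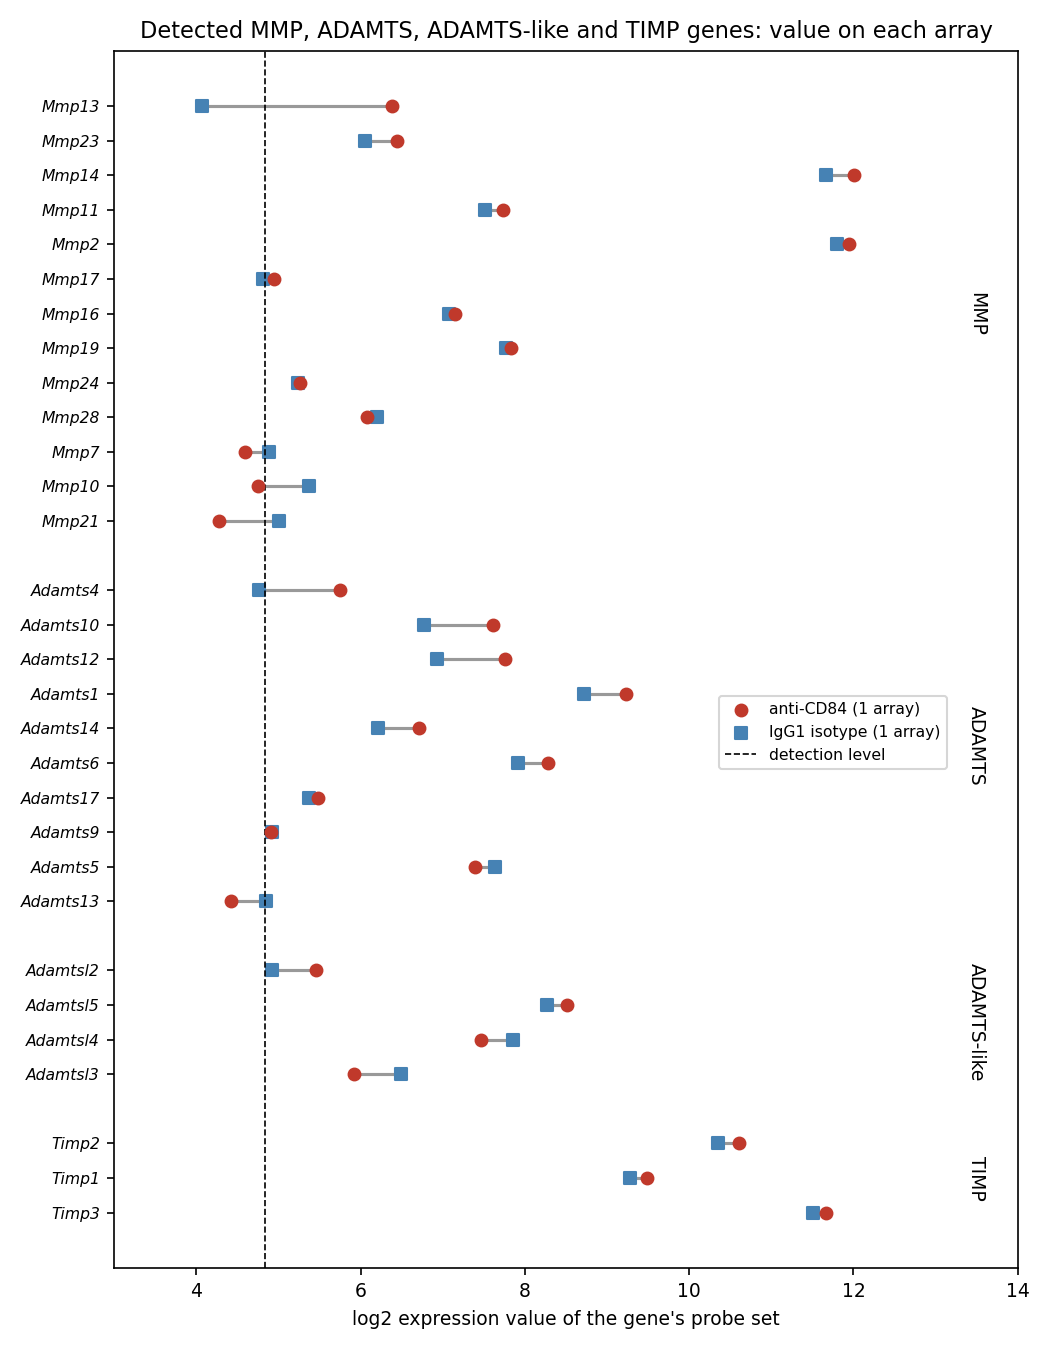
Log2 expression values (horizontal axis) of the 30 detected genes on the anti-CD84 array (circles) and the IgG1 array (squares), 1 array each, ordered within each family by the difference, with the detection level of 4.84 as a dashed line. Mmp13 lies at 6.38 after anti-CD84 and at 4.07, left of the line, after IgG1, while Mmp14, Mmp2 and the 3 detected TIMPs lie far to the right of the line on both arrays.

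Mmp13, the interstitial collagenase that mouse cells use to cut fibrillar collagen, was at 6.38 after anti-CD84 and at 4.07 after IgG1. The IgG1 value was below the detection level, so Mmp13 was at least 2.91-fold higher, counted from that level. The measured difference was 2.31, part of which lies below the detection level, and it was 1.54 counted from that level. By measured values, 1 of the 5056 other detected genes with a mean level of 5 to 7 had a larger upward difference. That rank was not recomputed from the detection level. The remaining collagenase genes, Mmp1a, Mmp1b and Mmp8, were undetected, with values between 2.96 and 3.74 after anti-CD84 and between 3.10 and 4.17 after IgG1. Mmp1a and Mmp1b are close copies of each other, and their probes could share signal.

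The neighbours of Mmp13 on its chromosome were mostly undetected. In the RefSeq gene order, 10 Mmp genes follow each other on chromosome 9 with 0 other protein-coding genes between them, from Mmp13 at the start to Mmp7 at the far end. Of these 10 genes 3 were detected, each on 1 array only, and 7 were undetected, whereas 59.9% of all genes were detected. Mmp10, stromelysin 2, is a proteoglycan- and laminin-cutting enzyme. It was at 4.75 after anti-CD84 and at 5.37 after IgG1, and so at least 1.45-fold lower after anti-CD84 when counted from the detection level. Mmp7, matrilysin, was at 4.59 after anti-CD84 and at 4.88 after IgG1, and a further probe set of this gene lay below the detection level throughout, at 4.47 after anti-CD84 and 4.01 after IgG1. Mmp3, stromelysin 1, had values of 3.56 after anti-CD84 and 3.80 after IgG1, and Mmp12, the macrophage metalloelastase, of 3.74 after anti-CD84 and 4.02 after IgG1. Mmp13 was thus above the detection level after anti-CD84 alone, while Mmp10 and Mmp7 were above it after IgG1 alone.

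**Figure D2:**
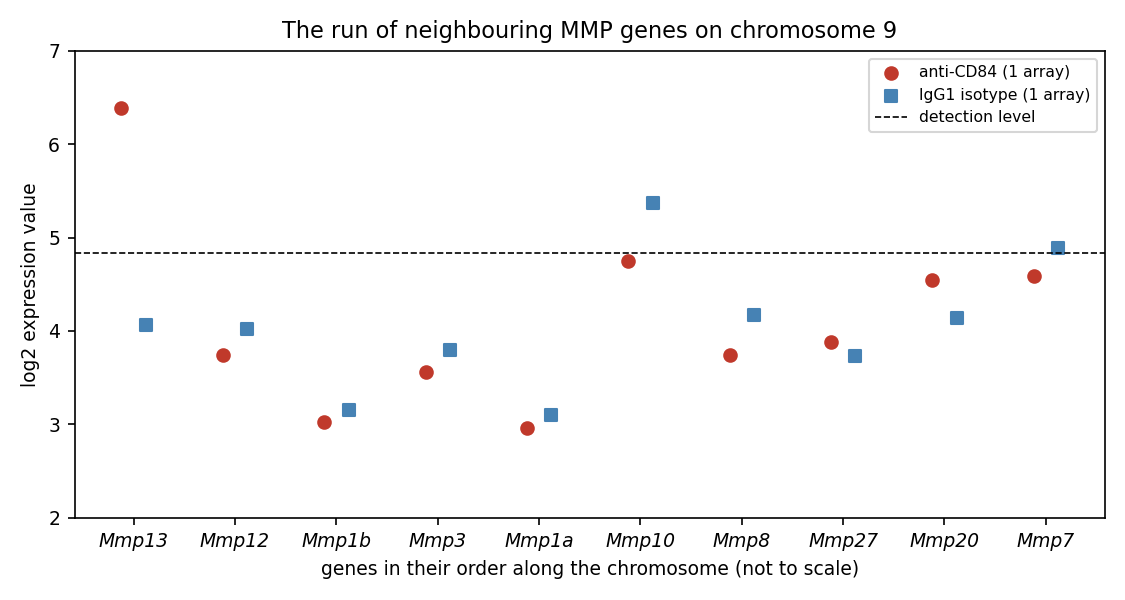
Log2 expression values (vertical axis) of the 10 neighbouring Mmp genes in their order along chromosome 9, on the anti-CD84 array (circles) and the IgG1 array (squares), with the detection level of 4.84 as a dashed line. Mmp13 is above the line after anti-CD84, Mmp10 at 5.37 and Mmp7 at 4.88 are above it after IgG1, and the other 7 genes lie below it throughout.

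The stretches before the starts of these neighbours are shown because many Mmp promoters are known to hold a site for AP-1, the Fos and Jun dimer, which reads TGAGTCA or, on the other strand, TGACTCA. Promoter windows of RefSeq (GRCm38.p6) matched 34 of the 49 genes by symbol. These 34 genes had 37 windows of the 250 bases before a start. The word was present on either strand in 7 of the 37 windows, from 7 genes, and in 4.46% of all 32851 windows of that length. All 7 genes were among the 10 neighbours on chromosome 9, and 0 of the 24 other matched genes had the word. All 10 neighbours had a window, but genes outside that run such as Mmp2, Mmp9, Adamts4, Adamts5 and Adamts10 had none and were not searched. Of the 6 genes past 1.5-fold, 4 had a window. The lines below give the 120 bases before the start of each, 5′ to 3′ on the gene's strand, with the AP-1 word in capitals. For Mmp12 and Mmp7, which have a second annotated start without the word before it, the start that has it is used.
Mmp13, chr9:7272394-7272513, plus strand: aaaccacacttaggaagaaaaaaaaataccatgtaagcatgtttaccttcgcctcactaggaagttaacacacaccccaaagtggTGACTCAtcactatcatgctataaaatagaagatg
Mmp12, chr9:7347254-7347373, plus strand: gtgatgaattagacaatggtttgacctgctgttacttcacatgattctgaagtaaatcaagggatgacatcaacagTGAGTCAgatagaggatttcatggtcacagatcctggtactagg
Mmp1b, chr9:7388027-7388146, minus strand: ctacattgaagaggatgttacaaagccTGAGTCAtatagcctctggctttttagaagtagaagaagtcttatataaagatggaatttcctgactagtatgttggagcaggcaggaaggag
Mmp3, chr9:7445702-7445821, plus strand: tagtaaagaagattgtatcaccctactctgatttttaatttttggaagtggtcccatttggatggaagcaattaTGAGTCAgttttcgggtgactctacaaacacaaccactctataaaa
Mmp1a, chr9:7464021-7464140, plus strand: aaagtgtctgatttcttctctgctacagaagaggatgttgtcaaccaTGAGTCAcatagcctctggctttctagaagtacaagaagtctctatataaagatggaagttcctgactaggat
Mmp10, chr9:7502222-7502341, plus strand: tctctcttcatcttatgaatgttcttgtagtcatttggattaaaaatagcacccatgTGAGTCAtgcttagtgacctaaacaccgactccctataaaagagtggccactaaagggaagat
Mmp7, chr9:7691970-7692089, plus strand: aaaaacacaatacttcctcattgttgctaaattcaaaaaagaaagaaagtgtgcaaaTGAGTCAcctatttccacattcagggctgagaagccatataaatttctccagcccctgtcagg
The word starts 35 bases before the annotated start in Mmp13, 63 bases in Mmp10 and Mmp7, and 46 bases in Mmp3. Of the 7 genes that hold it, 4 were undetected. The Mmp13 window also has ACCACA, a word read by Runx factors, 118 bases before the start. That word, looked up after the values were seen, occurs on either strand in 6 of the 37 windows, from 6 genes, and in 14% of all windows. A match of letters is a description and not a measured binding site.

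Mmp14 had a small difference at a level where differences are narrow. Mmp14, the membrane-anchored collagenase MT1-MMP that activates proMMP2, was at 12.01 after anti-CD84 and at 11.66 after IgG1, which is 1.28-fold higher. Of the 271 other genes with a mean level above 11, 28 had an upward difference as large as its 0.35. Mmp2, gelatinase A and the main target of MT1-MMP, was at 11.95 after anti-CD84 and 11.80 after IgG1, a difference of 0.15 within the spread of 0.22. The other gelatinase, Mmp9, was undetected, at 4.42 after anti-CD84 and 4.18 after IgG1.

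Among the other membrane-type enzymes, Mmp16 was at 7.14 after anti-CD84 and 7.08 after IgG1, Mmp17 at 4.94 after anti-CD84 and 4.81 after IgG1, and Mmp24 at 5.27 after anti-CD84 and 5.24 after IgG1. For Mmp24 a further probe set, which also carries the symbol BC029722 and so was not used, was at 7.54 after anti-CD84 and 7.07 after IgG1. Mmp25 was undetected, at 4.03 after anti-CD84 and 4.26 after IgG1. None of the 4 detected membrane-type genes reached 1.5-fold. The differences of Mmp16, 0.07, and Mmp24, 0.03, were below the median shift of all detected genes, 0.09. The sign of Mmp16 turned under all 3 rescalings of the arrays and that of Mmp24 under centring.

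Of the remaining Mmp genes, Mmp11, stromelysin 3, was measured by 2 probe sets above the detection level. The brighter was at 7.73 after anti-CD84 and 7.52 after IgG1, and the other at 7.04 after anti-CD84 and 6.70 after IgG1, so both were slightly higher after anti-CD84. Mmp23 was at 6.45 after anti-CD84 and 6.05 after IgG1, a difference of 0.39. Mmp19 was at 7.83 after anti-CD84 and 7.77 after IgG1, with a sign that turned on rescaling, and Mmp28, epilysin, was at 6.07 after anti-CD84 and 6.19 after IgG1. Mmp21, known for its part in left-right patterning of the embryo, was at 4.28 after anti-CD84 and 5.00 after IgG1. Counted from the detection level, it was at least 1.12-fold lower. Mmp20, the enamel protease, and Mmp27 were undetected, between 3.88 and 4.55 after anti-CD84 and between 3.73 and 4.14 after IgG1. Over the 13 detected Mmp genes 9 differences were above 0, against 59.1% of all detected genes. The median of the 13 was 0.07, against 0.09 for all detected genes.

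Adamts4, Adamts10 and Adamts12 were the ADAMTS genes past 1.5-fold, all upward. Of 18 measured Adamts genes 10 were detected, 3 were at least 1.5-fold higher and 0 were lower, against 10.7% and 6.4% of all detected genes. The median difference was 0.43, against 0.09 for all detected genes. It lies between the differences of Adamts6, 0.36, and Adamts14, 0.50. With the probe sets of Adamts14 averaged, that gene differed by 0.08, which lowers the median. Under each of 3 rescalings of the arrays (centring, removal of a smooth curve over level, quantile normalization) Adamts4, Adamts10 and Adamts12 stayed past 1.5-fold.

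In the group of proteoglycan-cutting enzymes, Adamts4, aggrecanase 1, was at 5.75 after anti-CD84 and at 4.77, below the detection level, after IgG1. It was at least 1.88-fold higher. Adamts1, which cuts versican and aggrecan, was at 9.24 after anti-CD84 and 8.72 after IgG1, which is 1.43-fold higher, and 635 of 4541 other genes at levels of 7 to 9 had an upward difference as large. Adamts5, aggrecanase 2, went the other way, at 7.39 after anti-CD84 and 7.63 after IgG1, a difference of -0.24 inside the spread of its level band. Adamts9 was at 4.90 after anti-CD84 and 4.92 after IgG1, a difference of -0.02. Adamts8, Adamts15 and Adamts20 were undetected, with values from 3.76 to 4.74 after anti-CD84 and from 3.95 to 4.43 after IgG1. The 2 best known aggrecanases, Adamts4 and Adamts5, thus had differences of opposite sign.

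Adamts12, which cuts cartilage oligomeric matrix protein, was at 7.76 after anti-CD84 and 6.93 after IgG1. That is 1.78-fold higher, and 139 of 4541 other genes at levels of 7 to 9, or 3.06%, had an upward difference as large. Adamts7, its closest relative, was undetected, at 3.93 after anti-CD84 and 4.50 after IgG1. Adamts10, a protein that binds fibrillin microfibrils, was at 7.62 after anti-CD84 and 6.77 after IgG1, which is 1.80-fold higher, and 125 of the 4541 other genes, or 2.75%, matched that. Adamts6, its nearest paralogue, was at 8.28 after anti-CD84 and 7.92 after IgG1, a difference of 0.36. Adamts10 and Adamts12 had the largest upward differences of the families among genes above the detection level on both arrays.

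Adamts14, a procollagen N-proteinase, was at 6.71 after anti-CD84 and 6.21 after IgG1, a difference of 0.50. A further, dimmer probe set of the gene had the opposite sign, with 4.63 after anti-CD84, below the detection level, and 4.96 after IgG1, and the mean of both probe sets differed by 0.08. Adamts17 was at 5.48 after anti-CD84 and 5.36 after IgG1. Adamts13, the protease that cuts von Willebrand factor, was at 4.42 after anti-CD84, and its IgG1 value of 4.84 only just passed the detection level. Adamts3, the other measured procollagen N-proteinase, and Adamts16, Adamts18 and Adamts19 were undetected, between 3.32 and 4.39 after anti-CD84 and between 3.73 and 3.95 after IgG1.

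The 4 detected ADAMTS-like genes split evenly. Adamtsl2, which binds fibrillin and latent TGF-beta binding protein, was at 5.46 after anti-CD84 and 4.92 after IgG1, a 1.45-fold difference. Adamtsl5 was at 8.51 after anti-CD84 and 8.27 after IgG1. Adamtsl3 was lower, at 5.92 after anti-CD84 and 6.49 after IgG1, which at 1.49-fold lay just inside the 1.5-fold threshold, and it passed that threshold under each of the 3 rescalings. Adamtsl4, which supports fibrillin fibres of the eye lens, was also lower, at 7.47 after anti-CD84 and 7.85 after IgG1. Adamtsl1 stayed just below the detection level, at 4.82 after anti-CD84 and 4.18 after IgG1. Over the 4 detected genes the differences ran from -0.58 to 0.54.

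The inhibitors differed little. Timp1, the inducible inhibitor, was at 9.48 after anti-CD84 and 9.28 after IgG1, a difference of 0.21. Timp2, which also takes part in the activation of proMMP2 by MT1-MMP, was at 10.61 after anti-CD84 and 10.34 after IgG1, a difference of 0.26. Timp3, the matrix-bound inhibitor that also blocks ADAMTS aggrecanases, was at 11.67 after anti-CD84 and 11.51 after IgG1, a difference of 0.16. All 3 differences were above 0, as were 60.7% of those of all genes above the detection level on both arrays. They lay inside the spread of their level bands, which was 0.31 for genes at levels of 9 to 11 and 0.22 above 11. They kept their sign under the 3 rescalings, and after centring were 0.12 for Timp1, 0.18 for Timp2 and 0.07 for Timp3. Timp4 was undetected, at 4.62 after anti-CD84 and 4.44 after IgG1.

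**Figure D3:**
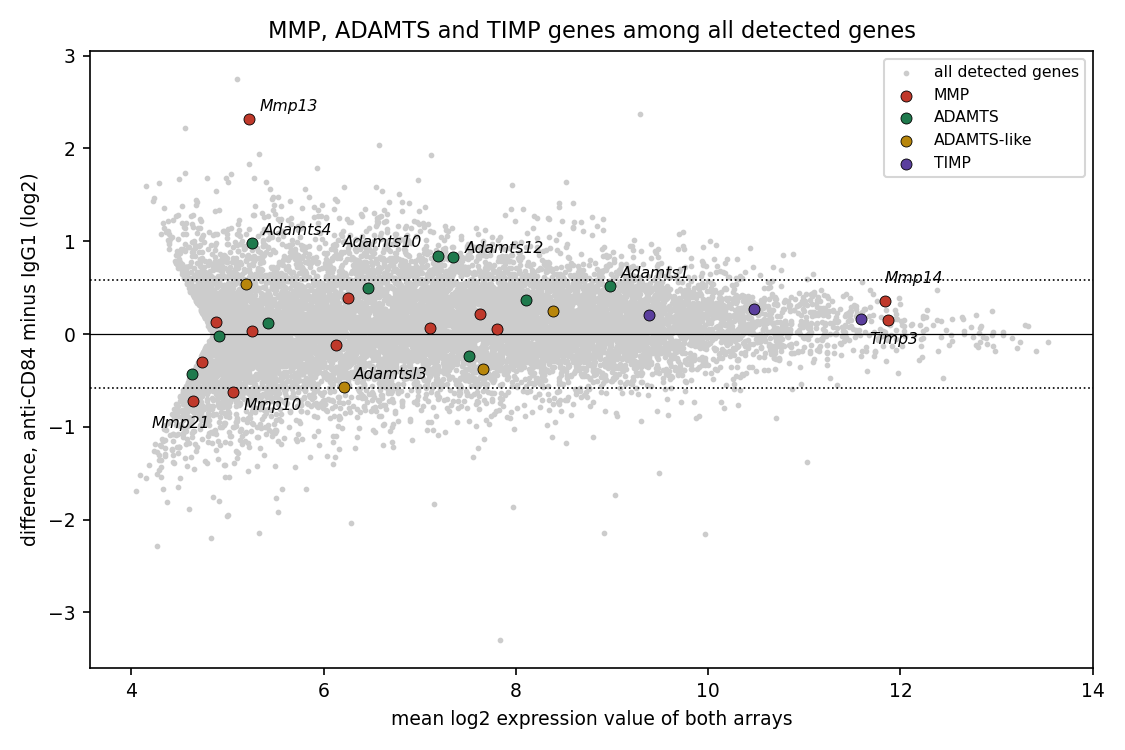
Difference, anti-CD84 minus IgG1 (log2, vertical axis), against the mean log2 value of both arrays (horizontal axis) for 13284 detected genes (grey) and for the 30 detected genes of the families (coloured), with dotted lines at 1.5-fold. The grey cloud narrows to the right, Mmp13 lies at 2.31 near its upper edge, and the 3 TIMPs lie between 0.16 and 0.26.

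Genes that act on or with these enzymes were read from lists that had been chosen by function. Over all detected genes 10.7% were at least 1.5-fold higher and 6.4% lower, 59.1% had a difference above 0, and the median was 0.09. Of 8 detected activators of proenzymes 0 were 1.5-fold higher and 1 was lower, with a median of 0.24, against shares of 10.7% and 6.4% over all detected genes. That 1 was Pcsk6, the proprotein convertase PACE4, at 6.75 after anti-CD84 and 7.53 after IgG1, which is 1.72-fold lower. Pcsk7, a further convertase, was at 6.64 after anti-CD84 and 6.25 after IgG1, and Hpn, the membrane protease hepsin, at 4.88 after anti-CD84 and 4.35 after IgG1. Hpn only just passed the detection level after anti-CD84, and counted from that level it was at least 1.03-fold higher. Of 3 detected other inhibitors and clearance receptors 0 passed 1.5-fold in either direction. Reck, a membrane-anchored inhibitor of several MMPs, was at 8.47 after anti-CD84 and 8.00 after IgG1, and Lrp1, the endocytic receptor that clears MMPs and ADAMTS proteases, at 12.06 after anti-CD84 and 11.85 after IgG1. Spock2, a testican, was at 5.31 after anti-CD84 and 5.35 after IgG1.

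Of 14 listed AP-1, ETS and Runx factors 12 were measured, and Runx2 and Fosl1 were not. All 12 were detected, 0 of them were 1.5-fold higher, and 1 was lower, with a median of 0.10. Over all detected genes 10.7% were higher and 6.4% lower. That gene was Runx3, at 6.38 after anti-CD84 and 7.02 after IgG1, which is 1.55-fold lower. The AP-1 subunits Fosb, at 7.31 after anti-CD84 and 7.80 after IgG1, and Junb, at 8.71 after anti-CD84 and 9.15 after IgG1, were lower by less than that. The other measured AP-1 subunits were slightly higher, with differences of 0.37 for Jun, 0.23 for Fosl2, 0.16 for Jund and 0.04 for Fos. Of the 12 factors, 7 had a difference above 0, against 59.1% of all detected genes. Of 12 detected cytokines and receptors known to induce metalloproteinases, 11 had a difference above 0, against 59.1% of all detected genes, and the median was 0.31. In this list 1 gene was 1.5-fold higher and 0 were lower, against 10.7% and 6.4%. Tnfrsf1a, the main TNF receptor, was 1.54-fold higher, at 9.68 after anti-CD84 and 9.06 after IgG1. Osmr, the oncostatin M receptor, was at 9.13 after anti-CD84 and 8.66 after IgG1, and Il1r1, the interleukin 1 receptor, at 7.74 after anti-CD84 and 7.39 after IgG1. Tnf itself was near the detection level, at 5.13 after anti-CD84 and 4.81 after IgG1, and Il1a and Il1b were undetected.

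Of 13 detected substrate genes 2 were 1.5-fold higher and 2 lower, against 10.7% and 6.4% of all detected genes, and the median was 0.09. Vcan, the versican that ADAMTS proteases cut, was at 10.33 after anti-CD84 and 9.54 after IgG1, whereas the collagen genes Col2a1, at 8.61 after anti-CD84 and 9.49 after IgG1, and Col4a1, at 9.14 after anti-CD84 and 10.02 after IgG1, were lower. Acan, the aggrecan after which the aggrecanases are named, was undetected, at 3.88 after anti-CD84 and 4.66 after IgG1. Among related proteases, 1 of 8 detected ADAM genes was 1.5-fold higher and 0 were lower, against 10.7% and 6.4% of all detected genes, with a median of -0.06. That 1 was Adam19, at 7.39 after anti-CD84 and 6.76 after IgG1, while Adam8 was at 5.74 after anti-CD84 and 5.39 after IgG1 and Adam12 at 6.22 after anti-CD84 and 6.49 after IgG1. Of the 2 detected astacin proteases, Bmp1, the procollagen C-proteinase, was at 9.46 after anti-CD84 and 9.27 after IgG1, and Tll2 was at 4.75 after anti-CD84 and 4.85 after IgG1.

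**Figure D4:**
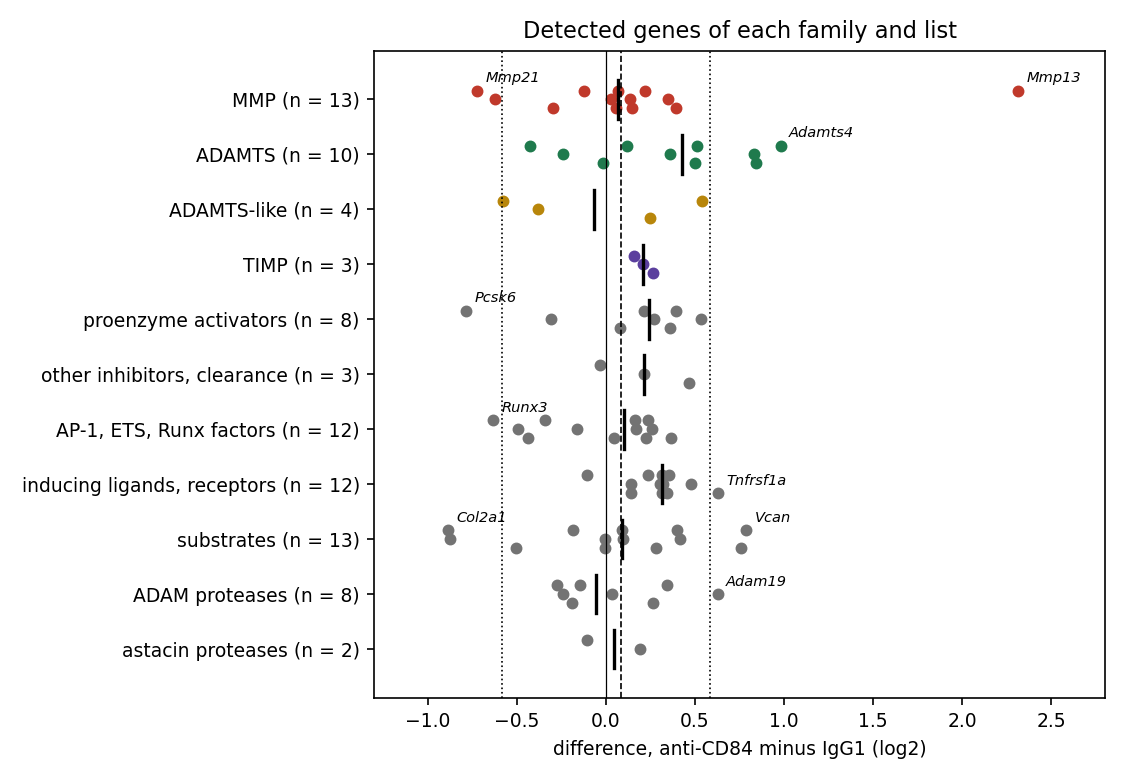
Differences, anti-CD84 minus IgG1 (log2, horizontal axis), of the detected genes of each family (coloured) and of each functional list (grey), 1 point per gene and a bar at each median, with dotted lines at 1.5-fold and a dashed line at 0.09, the median of all detected genes. The ADAMTS median of 0.43, which rests in part on the brighter Adamts14 probe set, lies right of the dashed line. Mmp13 at 2.31 is the point farthest to the right.

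Most of the measured markers of the labelled cell type were detected. Undetected were Lepr, at 4.04 after anti-CD84 and 3.60 after IgG1, Eng, at 4.54 after anti-CD84 and 4.22 after IgG1, and Nt5e, at 4.03 after anti-CD84 and 3.99 after IgG1. Of 12 measured markers of marrow stroma 9 were detected, 7 of them with a difference above 0, against 59.1% of all detected genes. The median difference of the 9 was 0.40, against 0.09 for all detected genes. Cxcl12, at 10.29 after anti-CD84 and 9.19 after IgG1, and Pdgfra, at 10.21 after anti-CD84 and 9.29 after IgG1, were the 2 at least 1.5-fold higher, and 0 were lower, against 10.7% and 6.4% of all detected genes. Col1a1 was at 12.52 after anti-CD84 and 12.53 after IgG1, and Thy1 at 4.39 after anti-CD84 and 4.95 after IgG1. All 12 together had a summed linear level of 21027 after anti-CD84 and 17468 after IgG1. Of 10 measured markers of blood cells 1 was detected, Csf1r, at 4.86 after anti-CD84 and 4.14 after IgG1. Csf1r only just passed the detection level, and counted from that level it was at least 1.01-fold higher. The summed linear level of all 10 was 179 after anti-CD84 and 208 after IgG1. The defining blood cell gene Ptprc was undetected, at 3.90 after anti-CD84 and 3.86 after IgG1. Of 5 endothelial markers 3 were detected, and all 5 together had a summed linear level of 116 after anti-CD84 and 157 after IgG1. By measured values 2 of them were at least 1.5-fold lower and 0 were higher, against 6.4% and 10.7% of all detected genes. These were Cdh5, at 4.61 after anti-CD84 and 5.56 after IgG1, and Pecam1, at 4.32 after anti-CD84 and 4.99 after IgG1. Both were above the detection level after IgG1 only. Counted from that level, Cdh5 was at least 1.65-fold lower and Pecam1 at least 1.11-fold lower, which is within 1.5-fold. Emcn, the third detected endothelial marker, was above the level on both arrays, at 5.19 after anti-CD84 and 5.19 after IgG1. Of 5 osteoclast markers 2 were detected, Ctsk and Acp5, and all 5 together had a summed linear level of 305 after anti-CD84 and 327 after IgG1. The part of these marker differences in the values above was not tested.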

How the data were processed

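Log2 expression values of 41345 probe sets on 2 arrays were used as deposited by the authors. RMA and Partek are named in the submitters' processing notes, without versions or settings. Not given in the sources used here are the genome build, the probe set annotation version and the arrays that were normalized together. RMA compresses differences of dim probe sets, so folds of dim genes can be understated, and with 1 array per group noise can also overstate them. The log2 scale was taken from the range of the values, 1.82 to 13.8, whose medians were 4.87 on the anti-CD84 array and 4.88 on the IgG1 array. The number of arrays, and not a read depth, limits the precision.

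GEO's platform annotation gave 1 symbol to 23521 probe sets. All 49 genes were found by gene ID in RefSeq (GRCm38.p6) with the same symbol. No array coordinates are given. All detected genes have their values in the text, with folds for those at or past 1.5-fold and for some below it. From each functional list up to 3 genes with the largest absolute difference were named. Tnf, Il1a, Il1b, Acan, Fos, Fosl2, Jun and Jund were added after their values were seen. For genes with 1 value under the detection level, the fold was counted from that level and written "at least", with no allowance for noise in the brighter value. The families, lists and thresholds were chosen with earlier results of these data known. No test was run, since each group has 1 array. Rescaling used centring on the median, a lowess curve (span 0.4) or quantile normalization. The counting step was checked on simulated data. Python 3.11.15, numpy 2.4.6, pandas 2.3.3, statsmodels 0.14.6 and matplotlib 3.10.9 were used.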

Additional observations from a re-analysis of the deposited data

How the results depend on the processing

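The detection rule moved the counts more than the scaling did. The count of genes at least 1.5-fold higher, 4, fell to 2 when both arrays had to be above the detection level and to 2 at a stricter level of 6.88, the 75th percentile of all values. The count of 1.5-fold lower genes, 2, became 0 under these settings, 0 at the 99th percentile of the receptor genes and 0 with values floored at the detection level. The 2-fold count of 1, Mmp13, became 0 with both arrays above the detection level and 0 at the 75th percentile, since its IgG1 value is below the one and both its values are below the other. Floored at the detection level, Mmp13 differed by 1.54. Across all settings the median difference of the detected genes of the families lay between 0.07, with centring, and 0.23, at the 99th percentile of the receptor genes. The remaining 37 of 45 recomputed values moved by at most 1.5 times (counts) or by less than 0.1 (medians). For single genes, 149 of 150 recomputed differences moved by less than 1 SD of their level band, which for dim genes is wide. Many of them could hardly move, so this count is no measure of robustness. Flooring leaves the 23 genes above the detection level on both arrays unchanged. Averaging leaves genes with 1 probe set unchanged, and centring shifts every gene by 0.09. Flooring took Mmp21 from -0.72 to -0.16, Mmp10 from -0.62 to -0.53, both then within 1.5-fold, and Adamts13 from -0.43 to -0.0022. Mmp10 was also within 1.5-fold with the lowess curve removed, at -0.57. The mean of all probe sets took Adamts14 from 0.50 to 0.08 and Mmp7 from -0.30 to 0.08. No paired analysis was possible because each group has 1 array, and no replicate could be left out.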
